A study of Mus musculus with 19 samples.

Results

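The nuclear genes for subunits of the oxidative phosphorylation machinery were taken by their symbols: those starting with Ndufa, Ndufb, Ndufc, Ndufs, Ndufv, Uqcr, Atp5 or Cox4 to Cox8, together with Sdha, Sdhb, Sdhc, Sdhd and Cyc1, without the assembly factors starting with Ndufaf. Of 86 matching symbols, 83 exceeded 1 TPM (a transcript level corrected for length and scaled to the same total in every library) in at least 1 of the 7 RNA-seq libraries, out of 12545 expressed genes in all. By complex, 36 belonged to complex I, 4 to complex II, 9 to complex III, 16 to complex IV and 15 to complex V. The prefixes also took in 3 genes whose products are not structural subunits, Cox7a2l, Atp5s and Atp5sl, which were kept apart in every count by complex. Ndufa4 and its paralog Ndufa4l2 were placed in complex IV.

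The study measured gene expression in mouse germ cells at the start of meiosis, around the action of STRA8, the germ-cell protein needed for meiotic initiation. Preleptotene spermatocytes, the cells about to enter meiosis, were sorted from C57BL/6 males that carried Ddx4-Cre and 1 copy of Rosa26-tdTomato, a reporter that Cre recombinase switches on in the germ-cell lineage only. Spermatogenesis was synchronised in all animals with a daily inhibitor of retinoic acid synthesis from postnatal day 2 to 8, retinoic acid on day 9, and collection of the testes about 6.75 days later. The Stra8-deficient group (Stra8-/-, 3 libraries) reached this stage without STRA8. The low-STRA8 group (2 libraries) and the high-STRA8 group (2 libraries) were both Stra8+/-, so no RNA group had both copies of Stra8, and were told apart by STRA8 staining of a biopsy, weak in the earlier and strong in the later preleptotene cells. Binding of STRA8 was measured separately by FLAG ChIP-seq on whole, unsorted testes of Stra8 FLAG/FLAG mice (3 mice) and of wild-type mice (3 mice) under the same synchronisation.

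Oxidative phosphorylation takes place at the inner mitochondrial membrane. Complexes I and II take electrons from NADH and succinate, complex III passes them to cytochrome c, complex IV hands them to oxygen, and complex V, the ATP synthase, uses the proton gradient that complexes I, III and IV build. Most subunits are encoded in the nucleus and made in fixed proportions with the few encoded in mitochondrial DNA, and their promoters are known targets of NRF1, of ETS-family factors and of YY1. Male germ cells are also known for testis forms of some of these subunits, such as Cox6b2, Cox7b2 and Cox8c.

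The sequences below are the DNA at members on which the results on binding and promoter content turn. The first 2 are the 151 bases around the highest STRA8-FLAG summit (the point of most reads in a peak) at Cox5a (chr9:57521132-57521282, plus strand) and Cox4i1 (chr8:120667930-120668080, plus strand), read from the mm10 genome on the strand of the gene. Capitals mark CNCCTCAG, the motif that the study found at STRA8 sites, with N for any base. Cox5a, the member with the strongest summit, holds no match in this window, and Cox4i1 holds 1.
Cox5a summit: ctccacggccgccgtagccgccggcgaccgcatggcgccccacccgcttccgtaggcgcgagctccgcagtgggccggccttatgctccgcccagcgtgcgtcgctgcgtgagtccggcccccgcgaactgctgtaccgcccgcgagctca
Cox4i1 summit: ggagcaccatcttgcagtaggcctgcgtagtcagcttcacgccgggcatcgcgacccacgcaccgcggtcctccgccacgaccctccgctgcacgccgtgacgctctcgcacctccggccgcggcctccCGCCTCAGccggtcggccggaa

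The other sequences are promoter windows from the RefSeq GRCm38.p6 table, from 110 bases before to 30 bases after the annotated start, with motif letters in capitals. Sdhb (chr4:140961161-140961300, plus strand) is the bound member whose promoter window holds CNCCTCAG. Atp5g2 (chr15:102671018-102671157, minus strand) and Atp5k (chr5:108434370-108434509, minus strand) hold the NRF1 palindrome, whose letters are the capitals in both. Ndufa3 (chr7:3617263-3617402, plus strand) and Ndufc1 (chr3:51408926-51409065, minus strand) hold the YY1 core AAGATGGC at the same place, 22 bases after the start.
Sdhb promoter: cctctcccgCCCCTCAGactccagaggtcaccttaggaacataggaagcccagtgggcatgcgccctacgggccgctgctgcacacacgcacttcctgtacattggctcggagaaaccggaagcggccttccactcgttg
Atp5g2 promoter: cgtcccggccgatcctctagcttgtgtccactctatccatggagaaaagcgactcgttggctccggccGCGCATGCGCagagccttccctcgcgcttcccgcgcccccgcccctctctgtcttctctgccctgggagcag
Atp5k promoter: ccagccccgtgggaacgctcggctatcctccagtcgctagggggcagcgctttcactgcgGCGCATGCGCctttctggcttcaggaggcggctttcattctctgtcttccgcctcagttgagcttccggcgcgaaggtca
Ndufa3 promoter: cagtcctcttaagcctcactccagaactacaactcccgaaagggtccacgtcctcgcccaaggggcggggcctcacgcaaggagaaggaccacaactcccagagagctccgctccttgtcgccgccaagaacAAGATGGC
Ndufc1 promoter: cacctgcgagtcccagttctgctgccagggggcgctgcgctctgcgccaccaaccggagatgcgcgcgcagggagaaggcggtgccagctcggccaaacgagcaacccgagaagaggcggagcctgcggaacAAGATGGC

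The 7 RNA libraries held 25049625 to 30015072 estimated counts each. Stra8 itself stood at 17.97, 22.8 and 5.16 TPM in the Stra8-deficient, 315 and 236 in the low-STRA8 and 1099 and 1248 in the high-STRA8 libraries, in the order of the labels. Germ-cell markers (7 of 7 above 1 TPM in at least 1 library, Dppa3 at 0 in high-STRA8 2) summed to between 3985 and 5275 TPM in the Stra8-deficient, 3313 and 3507 in the low-STRA8 and 6299.8 and 7409.7 in the high-STRA8 libraries. That list holds Stra8, and without it the sums were 5159.6, 5252 and 3979.999, then 3192 and 3077, then 5200.5 and 6162, so that the high-STRA8 and Stra8-deficient ranges overlapped. Markers of macrophages and blood (9 of 10 above 1 TPM, none at 0 in every library) summed to 11.6 to 34.8, 53.9 to 56.9 and 2.37 to 9.62 TPM in the same groups, with the 4 haemoglobin genes giving 52.2 and 55.6 TPM of the low-STRA8 sums. Markers of undifferentiated spermatogonia (5 of 8 above 1 TPM) summed to 24.6 to 26.5, 7.11 to 11.9 and 9.95 to 10.9 TPM, with 1 called lower in low-STRA8 than in Stra8-deficient cells, and those of pachytene and later cells (3 of 8 above 1 TPM, 2 at 0 in every library) to 20.8 to 22.3, 23.7 to 25.8 and 43.1 to 44.8 TPM, with 1 called higher in high-STRA8 than in low-STRA8 cells. Hspa2 alone gave most of the pachytene sum. It stood at 19.4, 16.05 and 18.8 TPM in the Stra8-deficient, 23.4 and 21.8 in the low-STRA8 and 42.1 and 41.5 in the high-STRA8 libraries. Piwil1 was instead highest in the Stra8-deficient libraries, with 2.83, 2.84 and 2.67, then 1.66 and 1.75, then 1.82 and 1.54 TPM. Prm1 exceeded 1 TPM in Stra8-deficient 2 only (1.45). The macrophage and blood sums were, as those of the subunit genes, highest in the low-STRA8 and lowest in the high-STRA8 libraries. Germ-cell sums without Stra8 were instead lowest in the low-STRA8 libraries. Tex101 gave much of that difference, with 2142, 2504 and 1636 TPM in the Stra8-deficient, 563 and 714 in the low-STRA8 and 1853 and 2842 in the high-STRA8 libraries. Mael went the other way, with 605, 655 and 661, then 737 and 704, then 652 and 617 TPM in the same order. For undifferentiated spermatogonia the low-STRA8 and high-STRA8 sums overlapped. Zbtb16 gave most of the higher Stra8-deficient sum, with 20.6, 18.2 and 16.7 TPM there, 3.65 and 4.76 in the low-STRA8 and 5.34 and 4.61 in the high-STRA8 libraries. Id4 was instead highest in the high-STRA8 libraries, with 0.97, 1.23 and 0.68, then 1.15 and 0.41, then 2.12 and 1.92 TPM in the same order. The part of these lists in the results was not tested. Sertoli cell markers (8 of 8 above 1 TPM) ranged from 51.1 to 233 TPM in the low-STRA8 libraries alone. The library Stra8-deficient 3 stood apart from the other 2 of its group: 68 of the 83 members (81.9%) were highest there, against 28.0% of all expressed genes, and the macrophage and leukocyte markers summed to 18.4 TPM there against 0.893 and 1.597 in the others.

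Subunit genes were among the abundant transcripts of preleptotene cells. Their mean over the 7 libraries exceeded 100 TPM for 70 of 83 members and 1000 TPM for 5, and fell below 50 TPM for 8. Every member but Cox8c was above 1 TPM in each library. Together the 83 genes summed to 29229.9, 29016 and 35444 in the Stra8-deficient, 38427 and 38740.2 in the low-STRA8 and 27909.9 and 26499.9 in the high-STRA8 libraries (TPM). The low-STRA8 libraries therefore gave 3.84% and 3.87% of all TPM to these genes, the high-STRA8 libraries 2.79% and 2.65%, and the Stra8-deficient libraries 2.92%, 2.90% and 3.54%. In bulk RNA, fewer cells of a type and less RNA per cell cannot be told apart.

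The order of the group means was the same within each complex, but in complexes I and II the high-STRA8 and Stra8-deficient libraries overlapped. Complex I summed to 8782, 8975 and 10371 in the Stra8-deficient, 11415 and 11505 in the low-STRA8 and 8857 and 8411 in the high-STRA8 libraries (TPM), complex III to 3959, 3949 and 4956 in the Stra8-deficient, 5371 and 5367 in the low-STRA8 and 3806 and 3552 in the high-STRA8 libraries (TPM) and complex V to 9015, 8927 and 10959 in the Stra8-deficient, 11681 and 11957 in the low-STRA8 and 8274 and 7726 in the high-STRA8 libraries (TPM). Complex IV gave 6001, 5721 and 7645 in the Stra8-deficient, 8353 and 8329 in the low-STRA8 and 5543 and 5418 in the high-STRA8 libraries (TPM), and complex II, the smallest, 1091, 1021 and 1121 in the Stra8-deficient, 1256 and 1246 in the low-STRA8 and 1072 and 1058 in the high-STRA8 libraries (TPM). In each of these sums both low-STRA8 libraries were the highest of the 7, and Stra8-deficient 3 was the highest of its group. The 3 genes that are not structural subunits went otherwise, with 381, 422 and 392 in the Stra8-deficient, 351 and 335 in the low-STRA8 and 357 and 335 in the high-STRA8 libraries (TPM), highest in the Stra8-deficient group. Gene by gene, the mean TPM was highest in the low-STRA8 group for 70 of 83 members (84.3%), against 19.1% of all expressed genes, and lowest in the high-STRA8 group for 64 (77.1%), against 37.8%.

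**Figure D1:**
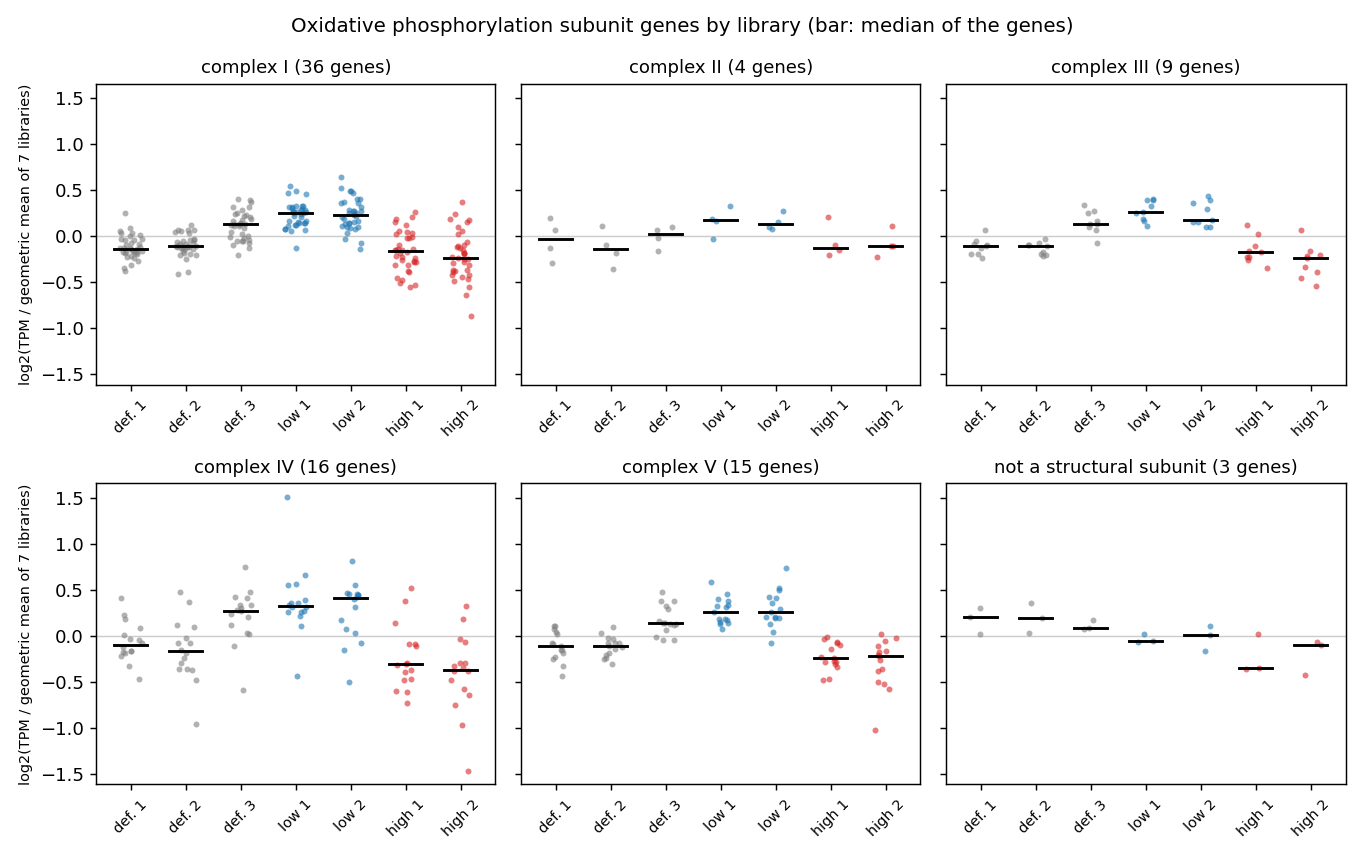
Level of every subunit gene in each of the 7 libraries, by complex, as log2 of its TPM over its geometric mean across the libraries (vertical axis), with def. for Stra8-deficient, low for low-STRA8 and high for high-STRA8. Points are genes and black bars the median of the genes. The bars of the 5 complexes are highest in the 2 low-STRA8 libraries or, in complex IV, also close to that level in Stra8-deficient 3, and the 3 genes that are not structural subunits lack this pattern.

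The most abundant member of each complex gives the scale. In complex V this was Atp5b, the catalytic beta subunit, with 1373, 1329 and 1486 TPM in the Stra8-deficient libraries, 1488 and 1554 in the low-STRA8 libraries and 1150.1 and 1125 in the high-STRA8 libraries. In complex IV, Cox6c stood at 980.4, 958 and 1493 TPM in the Stra8-deficient libraries, 1805 and 1693 in the low-STRA8 libraries and 996 and 1003 in the high-STRA8 libraries. Uqcr11 of complex III was listed at 863, 926 and 1201 TPM in the Stra8-deficient libraries, 1301 and 1271 in the low-STRA8 libraries and 777 and 755 in the high-STRA8 libraries. All 3 were highest in the low-STRA8 libraries, and for Uqcr11 and Atp5b the high-STRA8 libraries were the lowest of the 7 while for Cox6c they lay among the Stra8-deficient values. Ndufv2, a core iron-sulfur subunit of complex I, stood at 618, 611 and 674 TPM in the Stra8-deficient libraries, 834 and 834 in the low-STRA8 libraries and 715 and 650.2 in the high-STRA8 libraries. Sdhb, the iron-sulfur subunit of complex II, stood at 286, 277 and 337 TPM in the Stra8-deficient libraries, 357 and 379 in the low-STRA8 libraries and 283 and 292 in the high-STRA8 libraries.

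Between low-STRA8 and high-STRA8 cells, the earlier and the later preleptotene cells of 1 genotype, most subunit genes fell. In this comparison 59 of 83 members were lower in high-STRA8 cells at an adjusted p under 0.05 (edgeR quasi-likelihood test), which is 71.1% of members against 18.3% of all 12508 genes tested. No member was higher with this test, at an unadjusted p under 0.05 or with DESeq2, against a background of 21.3% of all genes, while limma on log2 TPM called 1, Ndufa10. The median log2 fold change was -0.63, a level 1.55-fold lower, against 0.01 over all genes. Groups did not overlap in TPM for 72 members that were lower and 2 that were higher, against 30.4% and 44.2% of all expressed genes. The fall was counted in 25 of 36 complex I genes (median -0.61), 3 of 4 complex II genes (-0.37), 7 of 9 complex III genes (-0.70), 11 of 16 complex IV genes (-0.81) and 13 of 15 complex V genes (-0.70), and in 0 of the 3 others (-0.38), where the unadjusted count was 2, the DESeq2 count 0 and the limma count 1, Atp5sl. Single libraries weighed on the count: it was 37 without low-STRA8 2, 39 without high-STRA8 1 and 12 without high-STRA8 2, where 13.1%, 8.12% and 4.32% of all genes were lower. In these fits the 1 library left in its group was assumed to vary as the others did.

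**Figure D2:**
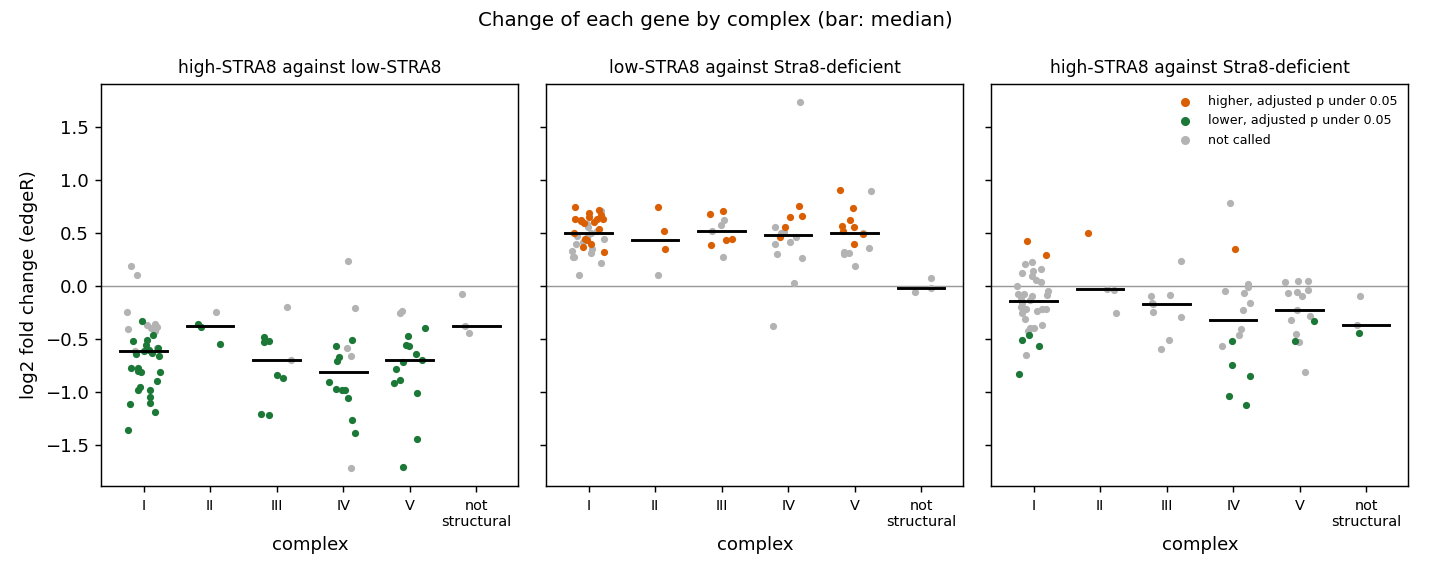
Log2 fold change of every subunit gene from the edgeR fit (vertical axis) by complex (horizontal axis) in the 3 comparisons, with black bars at the median, orange for genes higher and green for genes lower at an adjusted p under 0.05, and grey for the rest. Lower genes fill the comparison of high with low STRA8 (59 of 83), higher genes the comparison of low STRA8 with Stra8-deficient cells (40 of 83), and the third holds 4 higher and 12 lower.

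In the text, a value with its SE and adjusted p is the log2 fold change of the edgeR fit. In complex V, genes of the rotor and of the stator were both among those that fell. Atp5c1, the gamma subunit of the central stalk, stood at 686, 606 and 780.1 TPM in the Stra8-deficient libraries, 833 and 784 in the low-STRA8 libraries and 461 and 444 in the high-STRA8 libraries. The high-STRA8 libraries lay below all others and the groups did not overlap (log2 fold change -0.92, SE 0.13, adjusted p = 0.00191, a level 1.89-fold lower than in low-STRA8 cells). Atp5e, the epsilon subunit of the same stalk, stood at 768, 736 and 1186 TPM in the Stra8-deficient libraries, 1249 and 1304 in the low-STRA8 libraries and 739 and 645 in the high-STRA8 libraries, and fell by 2.71-fold (log2 fold change -1.44, SE 0.30, adjusted p = 0.00748). The largest value among the members called was that of Atp5k, the small membrane subunit e, with 727, 911 and 1369 TPM in the Stra8-deficient libraries, 1473 and 1644 in the low-STRA8 libraries and 833 and 485 in the high-STRA8 libraries. Its high-STRA8 libraries differed from each other, 1 of them lay within the Stra8-deficient range, and the fall from low STRA8 still passed the test (log2 fold change -1.71, SE 0.46, adjusted p = 0.0187). The alpha subunit Atp5a1 fell with -0.64 (SE 0.11, adjusted p = 0.00325) and Atp5o, the oligomycin-sensitivity subunit of the peripheral stalk, with -0.89 (SE 0.15, adjusted p = 0.00333). Atp5b, Atp5h and Atp5j also fell, with log2 fold changes of -0.55, -0.70 and -0.47. The 2 genes of this complex that missed the threshold were Atp5f1 (-0.26, SE 0.11, adjusted p = 0.0855) and Atp5g2 (-0.24, SE 0.10, adjusted p = 0.083).

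In complex IV, Cox7b showed the smallest adjusted p, with 49.8, 39.7 and 49.98 TPM in the Stra8-deficient libraries, 46.3 and 50.9 in the low-STRA8 libraries and 22.5 and 18.9 in the high-STRA8 libraries. Both high-STRA8 libraries were below the other 5 (log2 fold change -1.39, SE 0.21, adjusted p = 0.00207, 2.61-fold lower). Cox4i1, the general form of subunit 4, stood at 1148, 1119 and 1491 TPM in the Stra8-deficient libraries, 1426 and 1608 in the low-STRA8 libraries and 855 and 844 in the high-STRA8 libraries, and was 1.97-fold lower in high-STRA8 cells (log2 fold change -0.98, SE 0.17, adjusted p = 0.00388) with no overlap of the groups. Cox6a1 (-0.97, SE 0.18, adjusted p = 0.00492), Cox6b1 (-1.26, SE 0.27, adjusted p = 0.00791), Cox7a2 (-0.98, SE 0.22, adjusted p = 0.00931) and Cox8a (-1.05, SE 0.26, adjusted p = 0.0135) fell as well. Cox6c fell with -0.71 (SE 0.15, adjusted p = 0.00842), and Ndufa4 with -0.67. Cox5a, a subunit on the matrix side, stood at 529.8, 501 and 571 TPM in the Stra8-deficient libraries, 712 and 647 in the low-STRA8 libraries and 677 and 698 in the high-STRA8 libraries, so that its low-STRA8 and high-STRA8 values overlapped (log2 fold change -0.21, SE 0.12, adjusted p = 0.201).

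In complex III, the small subunit genes Uqcr11 and Uqcrq gave larger values than Cyc1, Uqcrfs1 and Uqcrh. Uqcr10, also a small subunit gene, was called in no comparison. Uqcr11 fell by 2.33-fold (log2 fold change -1.22, SE 0.25, adjusted p = 0.00698). Uqcrq, a small ubiquinone-binding subunit, stood at 520.3, 498 and 668 TPM in the Stra8-deficient libraries, 743 and 735 in the low-STRA8 libraries and 479 and 386 in the high-STRA8 libraries, with both high-STRA8 libraries the lowest of the 7 (log2 fold change -1.21, SE 0.24, adjusted p = 0.00574). The catalytic Cyc1, cytochrome c1 (-0.52, SE 0.11, adjusted p = 0.00796), and the Rieske protein gene Uqcrfs1 (-0.53, SE 0.13, adjusted p = 0.0125) fell with smaller values, as did the hinge protein gene Uqcrh (-0.84, SE 0.19, adjusted p = 0.00925), and the differences between genes were not tested. The core protein gene Uqcrc2 gave -0.20 (SE 0.10, adjusted p = 0.159). In complex II, Sdhb (-0.54, SE 0.15, adjusted p = 0.0193), the flavoprotein gene Sdha (-0.36, SE 0.10, adjusted p = 0.0234) and the membrane anchor gene Sdhd (-0.39, SE 0.10, adjusted p = 0.0141) fell, while the other anchor gene, Sdhc, gave -0.25 (SE 0.13, adjusted p = 0.16).

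In complex I, Ndufb2, an accessory subunit of the membrane arm, gave the largest difference, with 131, 97.9 and 169.9 TPM in the Stra8-deficient libraries, 179.9 and 201 in the low-STRA8 libraries and 87.5 and 82.4 in the high-STRA8 libraries (log2 fold change -1.36, SE 0.27, adjusted p = 0.00574). Ndufa13, an accessory subunit also known as GRIM-19, stood at 169, 166 and 234 TPM in the Stra8-deficient libraries, 251 and 255 in the low-STRA8 libraries and 125 and 124 in the high-STRA8 libraries, with the high-STRA8 libraries below and the low-STRA8 libraries above the other groups (log2 fold change -1.19, SE 0.20, adjusted p = 0.00313). Ndufb4 (-1.11, SE 0.18, adjusted p = 0.00297), Ndufb5 (-0.81, SE 0.15, adjusted p = 0.00396) and Ndufs6 (-0.98, SE 0.20, adjusted p = 0.00627) behaved alike in direction. Among the core subunits, which carry the flavin and the iron-sulfur clusters or line the quinone site, Ndufs8 (-0.95, SE 0.18, adjusted p = 0.0046), Ndufs3 (-0.58, SE 0.12, adjusted p = 0.00735) and Ndufv2 (-0.46, SE 0.12, adjusted p = 0.017) fell. Values that did not pass the test were -0.36 for Ndufs7, -0.24 for Ndufv1 and 0.10 for Ndufs1. Ndufs1, the largest subunit, stood at 231, 224 and 211 TPM in the Stra8-deficient libraries, 253 and 231 in the low-STRA8 libraries and 278 and 287 in the high-STRA8 libraries, and the accessory gene Ndufa10 at 103, 115 and 109.9 TPM in the Stra8-deficient libraries, 102 and 102 in the low-STRA8 libraries and 129 and 124 in the high-STRA8 libraries. These were the 2 members whose high-STRA8 libraries both lay above both low-STRA8 libraries, with log2 fold changes from low STRA8 of 0.10 (adjusted p = 0.388) and 0.19 (adjusted p = 0.199).

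**Figure D3:**
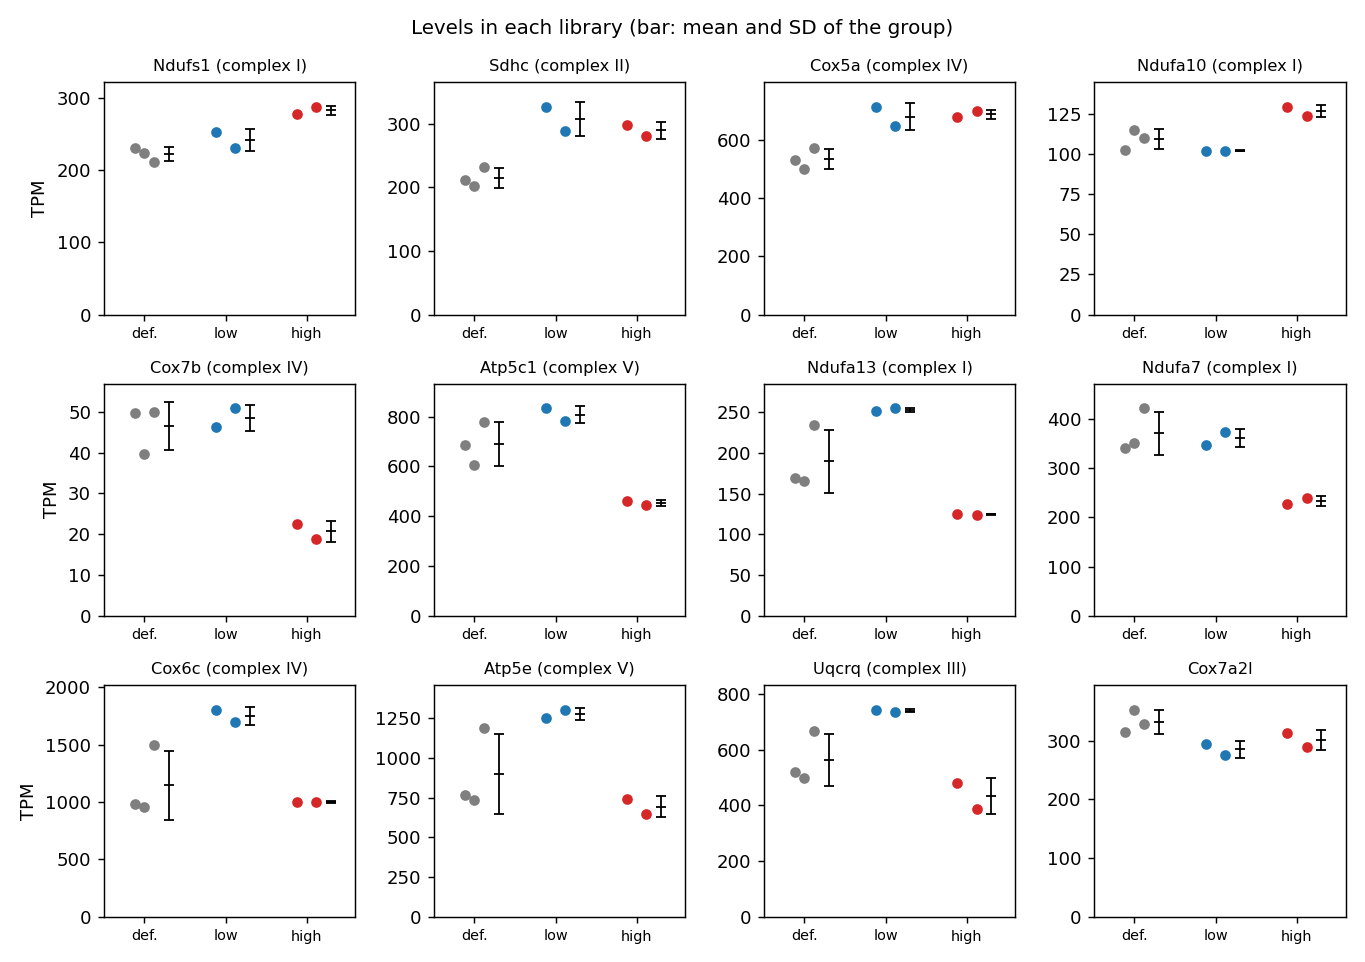
TPM in each library (vertical axis) of 12 genes named in the text, by group, with def. for Stra8-deficient, low for low-STRA8 and high for high-STRA8. Points are libraries, and bars beside them the mean and SD of the group. The top row holds the 4 genes that stood higher with high STRA8 than without STRA8, the middle row 4 of the genes lower there, and the bottom row Cox6c, Atp5e and Uqcrq, highest in the low-STRA8 libraries, and Cox7a2l, which passed the test in no comparison.

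Low-STRA8 cells were then compared with Stra8-deficient cells, the contrast that holds the weakest STRA8 against none. The level of STRA8, the genotype (Stra8+/- against Stra8-/-) and the position within the preleptotene stage cannot be told apart in it. Subunit genes were higher in low-STRA8 cells: 40 of 83 passed the test upward, 48.2% against 10.1% of all genes. None passed it downward with edgeR, at an unadjusted p under 0.05, with DESeq2 or with limma, where the background was 13.9%. The median log2 fold change was 0.50, against 0.03 over all genes. TPM did not overlap between the groups for 55 members that were higher and 6 that were lower, against 12.1% and 39.4% of all expressed genes. The rise was counted in 19 of 36 genes of complex I (median 0.50), 3 of 4 of complex II (0.43), 5 of 9 of complex III (0.52), 5 of 16 of complex IV (0.48) and 8 of 15 of complex V (0.50). Of the 3 others, 0 rose with edgeR, DESeq2 or limma or at an unadjusted p under 0.05 (median -0.02). This comparison shares its low-STRA8 libraries with the one above, so the 2 are not independent of each other.

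The count of 40 depended on each library. It was 13, 7 and 62 without Stra8-deficient 1, 2 and 3, then 22 and 11 without low-STRA8 1 and 2, and 22 and 24 without high-STRA8 1 and 2, which enter through the shared estimate of spread. In the order of these fits the count was 15.7%, 8.43%, 74.7%, 26.5%, 13.3%, 26.5% and 28.9% of the members, where 8.09%, 4.92%, 11.4%, 6.04%, 8.87%, 5.59% and 5.64% of all genes were higher. It was 56 with DESeq2 (67.5%, against 11.8% of all genes), 57 with the replicate block (68.7%, against 8.34%) and 16 with limma (19.3%, against 3.97%). Without Stra8-deficient 3, the library in which most members were high, the median rose from 0.50 to 0.66. The direction of the median was the same in each of these fits.

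Sdhc, which anchors succinate dehydrogenase in the membrane, had the smallest adjusted p. It stood at 212, 201 and 232 TPM in the Stra8-deficient libraries, 326 and 288 in the low-STRA8 libraries and 298 and 280.05 in the high-STRA8 libraries. Both groups of Stra8+/- cells lay above all Stra8-deficient libraries (log2 fold change 0.75, SE 0.12, adjusted p = 0.0045, 1.68-fold higher in low-STRA8 cells). Sdhb (0.52, SE 0.13, adjusted p = 0.0252) and Sdhd (0.35, SE 0.09, adjusted p = 0.0225) rose too, and Sdha gave 0.10 (SE 0.09, adjusted p = 0.467). In complex I, Ndufv2 rose by 1.52-fold (log2 fold change 0.60, SE 0.11, adjusted p = 0.00693), with no overlap of the groups. Ndufs6 (0.74, SE 0.18, adjusted p = 0.0194), the accessory gene Ndufb11 (0.67, SE 0.14, adjusted p = 0.0125) and the flavin-binding core gene Ndufv1 (0.40, SE 0.09, adjusted p = 0.0144) rose as well.

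In complex IV, Cox5a rose by 1.47-fold (log2 fold change 0.56, SE 0.11, adjusted p = 0.00996), and both its low-STRA8 values lay above the 3 Stra8-deficient ones. Cox6c rose (log2 fold change 0.65, SE 0.14, adjusted p = 0.0133), though Stra8-deficient 3, at 1493 TPM, lay between the low-STRA8 libraries and the other 2 of its group. Cox7a2 was listed at 355, 310.2 and 472 TPM in the Stra8-deficient libraries, 516 and 589 in the low-STRA8 libraries and 323 and 328 in the high-STRA8 libraries, again with Stra8-deficient 3 the highest of its group (log2 fold change 0.76, SE 0.19, adjusted p = 0.0258). In complex III the genes called first were Uqcrc2 (0.44, SE 0.09, adjusted p = 0.0132), Uqcrh (0.68, SE 0.17, adjusted p = 0.0218) and Uqcrfs1 (0.44, SE 0.11, adjusted p = 0.0256), with Uqcrq at 0.70 (SE 0.21, adjusted p = 0.0439). In complex V, Atp5e gave the largest called value, 0.91 (SE 0.27, adjusted p = 0.0408). Atp5h (0.74, SE 0.17, adjusted p = 0.0157), Atp5j (0.52, SE 0.11, adjusted p = 0.0126) and Atp5o (0.57, SE 0.14, adjusted p = 0.02), all of the peripheral stalk, rose as well.

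High-STRA8 cells were compared with Stra8-deficient cells as the pair furthest apart in STRA8, and few subunit genes passed the test. Here too the level of STRA8, the genotype and the position within the stage cannot be told apart. In this comparison 4 members were higher (4.82%, against 18.8% of all genes), 12 were lower (14.5%, against 18.3%), the median was -0.17 (against -0.02), and 67 did not pass the test. The share of higher members was below the background. The share of lower members was below it in this fit and above it in others, with 18 lower members in DESeq2 (21.7%, against 19.2% of all genes), 23 in limma on log2(TPM + 1) (27.7%, against 24.04%) and 11 without the filter on TPM (13.3%, against 11.5%). Groups did not overlap in TPM for 8 members that were higher and 39 that were lower, against 27.9% and 39.3% of all expressed genes. By complex, higher and lower counts were 2 and 4 in complex I, 1 and 0 in complex II, 0 and 0 in complex III, 1 and 5 in complex IV and 0 and 2 in complex V, and Atp5sl was lower among the 3 others. In complex III the unadjusted counts were 1 and 3, and DESeq2 and limma each called 0 higher and 1 lower there. In complex II the unadjusted p, DESeq2 and limma each gave 1 lower, and in complex V each gave 0 higher. The lower count was 4 without Stra8-deficient 3 (4.82%, against 13.9% of all genes) and 3 with the replicate block (3.61%, against 12.4%). Fewer members and fewer of all genes were lower when either high-STRA8 library was left out, which leaves 1 library in that group. The median was -0.03 without Stra8-deficient 3, -0.26 without high-STRA8 1 and -0.10 without high-STRA8 2.

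The 4 higher genes were Ndufs1, Sdhc, Cox5a and Ndufa10, each with both high-STRA8 libraries above all Stra8-deficient ones. The differences were 0.42 (SE 0.08, adjusted p = 0.00464) for Ndufs1, 0.50 (SE 0.12, adjusted p = 0.0109) for Sdhc, 0.35 (SE 0.11, adjusted p = 0.0374) for Cox5a and 0.29 (SE 0.10, adjusted p = 0.0462) for Ndufa10, between 1.22-fold and 1.41-fold. The count of higher members was 2 without Stra8-deficient 1 and 2 without Stra8-deficient 2 (2.41% each, against 18.4% and 16.6% of all genes). Fewer members and fewer of all genes were higher when either high-STRA8 library was left out.

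Among the 12 lower genes, Cox7b gave the largest change (log2 fold change -1.12, SE 0.19, adjusted p = 0.00273, 2.17-fold lower). Ndufa7, an accessory complex I gene, stood at 342, 352 and 422 TPM in the Stra8-deficient libraries, 349 and 375 in the low-STRA8 libraries and 227 and 240.4 in the high-STRA8 libraries, lower in both high-STRA8 libraries than in any other (log2 fold change -0.83, SE 0.18, adjusted p = 0.00835). Cox4i1 (-0.52, SE 0.16, adjusted p = 0.0342), Cox6b1 (-0.85, SE 0.25, adjusted p = 0.0287), Cox8a (-0.75, SE 0.24, adjusted p = 0.038), Ndufa13 (-0.57, SE 0.18, adjusted p = 0.0391), Ndufb10 (-0.46, SE 0.15, adjusted p = 0.0369), Ndufs8 (-0.51, SE 0.16, adjusted p = 0.0378) and Ndufa4l2 (-1.03, SE 0.32, adjusted p = 0.0358) were lower as well. In complex V these were Atp5c1 (-0.52, SE 0.12, adjusted p = 0.0115) and Atp5a1 (-0.33, SE 0.10, adjusted p = 0.0307). Atp5sl, a gene for a complex I assembly protein named after ATP synthase, stood at 45.5, 50.6 and 44.5 TPM in the Stra8-deficient libraries, 37.96 and 42.6 in the low-STRA8 libraries and 31.1 and 29.5 in the high-STRA8 libraries (log2 fold change -0.44, SE 0.12, adjusted p = 0.0227). Without a called difference, the largest value in complex III was that of Uqcr11 (-0.60, SE 0.23, adjusted p = 0.0751) and in complex V that of Atp5k (-0.81, SE 0.42, adjusted p = 0.164).

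Paralogs of 1 subunit did not all follow the same course. Subunit c of the ATP synthase rotor is made from 3 genes that encode the same mature protein. Atp5g1 stood at 261, 275 and 377 TPM in the Stra8-deficient libraries, 382 and 409 in the low-STRA8 libraries and 208 and 193 in the high-STRA8 libraries, and fell from low to high STRA8 (log2 fold change -1.01, SE 0.19, adjusted p = 0.00467). Atp5g3 stood at 259.9, 241 and 287 TPM in the Stra8-deficient libraries, 329 and 313 in the low-STRA8 libraries and 262 and 238 in the high-STRA8 libraries and fell with a smaller value (log2 fold change -0.57, SE 0.14, adjusted p = 0.0148). Atp5g2, the most abundant of them, stood at 609.6, 634 and 573 TPM in the Stra8-deficient libraries, 622 and 562 in the low-STRA8 libraries and 587 and 548 in the high-STRA8 libraries, with all 7 libraries between 548 and 634 and no call in any comparison. The difference between the genes' changes was not tested.

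Testis forms of complex IV subunits differed in level from the general forms. Cox6b2 stood at 39.5, 44.97 and 37.7 TPM in the Stra8-deficient libraries, 37.7 and 33.00 in the low-STRA8 libraries and 27.01 and 27.7 in the high-STRA8 libraries, below Cox6b1 (372, 307 and 486, 441 and 463 and 251 and 223 in the same order) in every library, and gave -0.59 (SE 0.22, adjusted p = 0.0597) from low to high STRA8. Cox7b2 went the other way in level, with 208, 182 and 293 TPM in the Stra8-deficient libraries, 307 and 322 in the low-STRA8 libraries and 189 and 179 in the high-STRA8 libraries, above Cox7b in every library, and fell from low to high STRA8 (log2 fold change -0.56, SE 0.15, adjusted p = 0.0193). Cox8c, at 1.72, 1.23 and 2.75 TPM in the Stra8-deficient libraries, 6.81 and 4.196 in the low-STRA8 libraries and 3.099 and 0.863 in the high-STRA8 libraries, rested on 2 to 23 counts a library and was called in no comparison, while Cox8a stood at 80.8, 86.97 and 106 TPM in the Stra8-deficient libraries, 118 and 72.1 in the low-STRA8 libraries and 53.00 and 62.7 in the high-STRA8 libraries.

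Forms known from other tissues were also rare beside their general forms. Cox7a1, the heart and muscle form, stood at 26.02, 25.03 and 19.8 TPM in the Stra8-deficient libraries, 47.02 and 20.9 in the low-STRA8 libraries and 42.5 and 37.1 in the high-STRA8 libraries, with low-STRA8 1 above low-STRA8 2, which lay among the Stra8-deficient values, and was called in no comparison, and the liver form Cox7a2 was higher in every library. Ndufa4l2, known from hypoxic cells, stood at 7.76, 9.25 and 11.2 TPM in the Stra8-deficient libraries, 4.897 and 7.499 in the low-STRA8 libraries and 4.34 and 4.44 in the high-STRA8 libraries, and Ndufa4 at 333, 267 and 381 TPM in the Stra8-deficient libraries, 463 and 514 in the low-STRA8 libraries and 352 and 355 in the high-STRA8 libraries. Cox4i2, Cox6a2 and Cox8b did not exceed 1 TPM in any library, and Cox8b was listed at 0 in all 7. Cox7a2l, a factor of respiratory supercomplexes rather than a subunit, stood at 314, 353 and 329 TPM in the Stra8-deficient libraries, 295 and 275 in the low-STRA8 libraries and 313 and 289 in the high-STRA8 libraries, and changed by -0.07, -0.02 and -0.09 in the 3 comparisons, none of them called. Atp5s, a factor of the ATP synthase, was also not called, with -0.44, 0.08 and -0.36 in the same order.

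Subunit genes have short transcripts, and length moved with the change. The median effective length, the number of positions from which a read can start, was 509 bases for members and 2530 for all genes tested. When all genes were split into 5 classes of equal size by this length, 70 members fell in the shortest class, up to 1299.9 bases. From low to high STRA8 the median change over all genes of that class was -0.34 and that of its members -0.68, with 52 members lower where 30.3% of the class was lower. In low-STRA8 against Stra8-deficient cells the class median was 0.27 and the members' median 0.52, with 34 members higher where 16.8% of the class was higher. The longest class, without members, went the opposite way, with medians of 0.42 and -0.37. With a trend on length taken out of each library, 33 members were lower in high-STRA8 than in low-STRA8 cells (39.8%, against 17.7% of all genes) and 13 were higher in low-STRA8 than in Stra8-deficient cells (15.7%, against 9.47% of all genes, where the fit without the trend gave 48.2% against 10.1%), and the medians were -0.28 and 0.23. Among the 83 members, which share their libraries, Spearman's rho of the change with length was 0.44 in the first of these comparisons and -0.52 in the second. The part of transcript length in the results was not otherwise tested.

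**Figure D4:**
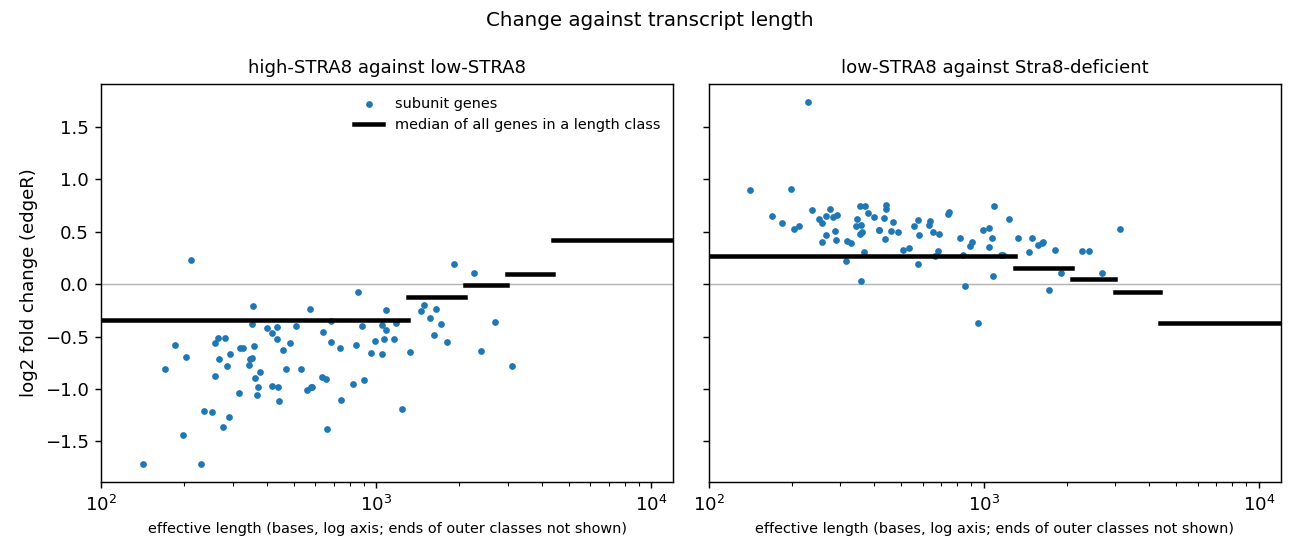
Log2 fold change from the edgeR fit (vertical axis) against effective length in bases (horizontal axis, log scale) for the 83 subunit genes (blue points) in 2 comparisons, with black bars at the median of all genes in each of 5 length classes. Most points lie below the bar of their class in the comparison of high with low STRA8 and above it in the comparison of low STRA8 with Stra8-deficient cells.

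The effective length also differed between libraries, so that a TPM and a count could point apart. It was taken relative to the other genes of a library and to the mean over libraries. The members' median was then 0.98, 1.01 and 1.03 in the Stra8-deficient, 1.02 and 1.03 in the low-STRA8 and 0.99 and 0.94 in the high-STRA8 libraries. Ndufa3 stood at 356, 328 and 374 TPM in the Stra8-deficient libraries, 409.9 and 425 in the low-STRA8 libraries and 351 and 505 in the high-STRA8 libraries, highest in high-STRA8 2, while its estimated counts were 746, 851 and 1011, then 1185 and 1267, then 743 and 652, lowest in that library. Its call from low to high STRA8 (log2 fold change -0.81, SE 0.18, adjusted p = 0.00945) rests on the counts. An alternative chosen after the data were seen took the effective length of each gene in each library as an offset. With it, 56 members were lower in high-STRA8 than in low-STRA8 cells (67.5%, against 18.3% of all genes). In low-STRA8 against Stra8-deficient cells 45 were higher (54.2%, against 10.7%). The members' median log2 fold changes in these comparisons were -0.53 and 0.45 with this offset, against -0.63 and 0.50 without it.

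STRA8 binding was read from ChIP-seq summits, with a gene called bound when a summit lay within 1 kb of a start site in at least 2 of the 3 FLAG/FLAG libraries and in no wild-type library. By this rule 12 of 83 members were bound, 14.5% against 22.6% of all expressed genes. With a summit in at least 1 library the count was 32 (38.9% of all genes), and with all 3 libraries it was 7 (12.2% of all genes). The bound genes included Ndufa6, Ndufa13, Ndufab1, Ndufs1 and Ndufv2 in complex I, Sdha and Sdhb in complex II, Uqcrh in complex III, Cox4i1 and Cox5a in complex IV and Atp5g2 in complex V. The 3 FLAG/FLAG libraries had 5687, 3299 and 2035 summits, with 29, 14 and 8 members, and the third was made with another library kit. The wild-type libraries had 798, 45 and 164 summits, and 1 of these lay at a member, Ndufa11. The RNA was from sorted cells and the chromatin from whole testes, so the 2 readouts are of different cell mixtures.

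**Figure D5:**
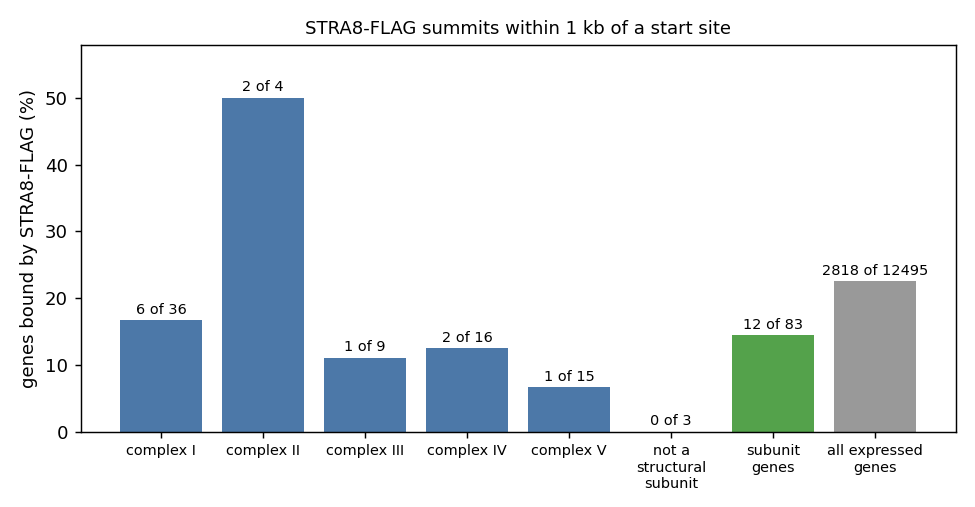
Share of genes bound by STRA8-FLAG (vertical axis, percent) for each complex, for the genes that are not structural subunits, for all subunit genes and for all expressed genes, with the numbers above the bars. The share was 14.5% of the subunit genes (12 of 83) and 22.6% of all expressed genes.

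Cox5a had the highest summit score of the members, the -log10 of the p-value of the peak caller, with 40.1, 29.9 and 15.3 in the 3 libraries, 72 and 105 bases upstream and 20 bases downstream of the start. Ndufa13 followed with 28.9, 15.1 and 23.2, but its highest summit lay 683 bases upstream, and the start of Yjefn3 was nearer, at 529 bases. Ndufab1, the mitochondrial acyl carrier protein, had 26.4, 8.04 and 14.3, within 40 bases of the start. Ndufa6, an accessory subunit, had 14.3, 22.6 and 9.76, and Atp5g2 15.9, 6.96 and 9.68. Sdha had 16.5, 11.99 and 8.24, and Uqcrh 16.6, 17.5 and 12.2. Sdhb was bound in 2 libraries with 20.6 and 9.68, and Cox4i1 with 20.6 and 7.13. For 4 of the 12 (Cox4i1, Ndufa13, Sdha and Uqcrh) another gene's start lay nearer to the highest summit than the member's own, so the summit cannot be assigned to either by position. Ndufs1 was bound in 2 libraries with 11.2 and 11.1. Its own start lay 2 bases from the highest summit, and that of Eef1b2, on the other strand, 91 bases.

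Bound members were found among those that fell, rose and did neither. From low to high STRA8, 8 of the 12 bound members and 51 of the 71 others were lower. In low-STRA8 against Stra8-deficient cells, 7 of 12 and 33 of 71 were higher. In high-STRA8 against Stra8-deficient cells the bound members gave 2 higher (Cox5a and Ndufs1) and 2 lower (Cox4i1 and Ndufa13), and the others 2 higher and 10 lower.

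The motif CNCCTCAG, searched on both strands in the 2 kb around the start, was found at 37 of 83 members (44.6%), against 46.7% of expressed genes. Among the bound members, the match nearest to a summit was that of Cox4i1, 58 bases away and printed in capitals above, followed by Sdhb at 74 bases. Ndufs1 had a match 150 bases from a summit. Ndufa6 had 4 matches, the nearest 763 bases away, and Ndufab1, Ndufv2, Sdha and Uqcrh had none.

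In the 300-base RefSeq promoters (250 bases before to 50 after the start), found for 69 of 83 members and 10018 expressed genes, letters were counted on both strands. AAGATGGC, the YY1 core, was present at 11 members (15.9%), against 5.35% of expressed genes. Of its 12 matches, 9 started 22 to 38 bases after the start, among them those of Ndufa3 and Ndufc1 shown above. By complex, 7 of 32 promoters of complex I and 3 of 14 of complex V held it, and 0 of 12 of complex IV, 0 of 5 of complex III and 0 of 3 of complex II. The NRF1 palindrome, with the letters in capitals at Atp5g2 and Atp5k, was present at 5 members (7.25% against 2.40%): Atp5g2 and Atp5k, shown above at 42 and 50 bases before the start, and Cox6a1, Ndufa11 and Uqcrc1. CCGGAAGT, an ETS core, was present at 5 members (7.25% against 9.37%), and CNCCTCAG at 4 (5.80% against 11.3%): Atp5h, Atp5k, Sdhb and Uqcrc1. A match in these letters is a description of the sequence and not a site.

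Other genes of the pathway were taken from lists by function, and no list was tested as a set. The background for the counts of every list, here and below, is the share of all 12508 genes tested. In high-STRA8 against low-STRA8 cells 21.3% of these were higher and 18.3% lower. In low-STRA8 against Stra8-deficient cells 10.1% were higher and 13.9% lower, and with high STRA8 against none 18.8% were higher and 18.3% lower. Of 47 assembly factors of the respiratory complexes, 19 were lower and 4 higher in high-STRA8 than in low-STRA8 cells (median -0.47), 10 were higher and 0 lower in low-STRA8 than in Stra8-deficient cells (median 0.29), and 6 were higher and 10 lower with high STRA8 than without STRA8. From low to high STRA8 the smallest adjusted p were those of Surf1, a complex IV factor (-1.07, SE 0.17, adjusted p = 0.00274), Sdhaf4, a complex II factor (-1.30, SE 0.22, adjusted p = 0.00322), and Uqcc3, a complex III factor (-1.13, SE 0.19, adjusted p = 0.00337), which fell. The 4 that rose were Ecsit, Foxred1, Atpaf2 and Coa7. Ecsit, a complex I assembly factor that also acts in innate signalling, stood at 82.2, 89.4 and 90.5 TPM in the Stra8-deficient libraries, 127 and 116 in the low-STRA8 libraries and 199 and 207 in the high-STRA8 libraries, rising at each step (0.67, SE 0.10, adjusted p = 0.00327, then 0.62, SE 0.11, adjusted p = 0.00337). Foxred1, another complex I factor, and Atpaf2, a factor of the ATP synthase, also rose at each step, with 0.58 (SE 0.11, adjusted p = 0.00752) and 0.56 (SE 0.10, adjusted p = 0.00704) in low-STRA8 against Stra8-deficient cells and 0.60 (SE 0.12, adjusted p = 0.00516) and 0.43 (SE 0.11, adjusted p = 0.0159) in high-STRA8 against low-STRA8 cells.

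Of 78 mitochondrial ribosomal protein genes, 39 were lower and 1 was higher in high-STRA8 than in low-STRA8 cells (median -0.42), 21 were higher and 0 lower in low-STRA8 than in Stra8-deficient cells (0.32), and 8 were higher and 18 lower with high STRA8 than without STRA8 (-0.08). Mrpl17 and Mrps25 rose from Stra8-deficient to high-STRA8 cells (0.96, adjusted p = 0.000436, and 0.80, adjusted p = 0.000514), and Mrps23 fell (-0.47, adjusted p = 0.00871). For the counts of 0 lower among these and the assembly factors, the unadjusted, DESeq2 and limma counts were also 0.

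Of 10 genes for cytochrome c and the carriers that feed the ATP synthase, 1 was higher and 2 were lower in high-STRA8 than in low-STRA8 cells, 4 were higher in low-STRA8 than in Stra8-deficient cells, and 2 were higher and 2 lower with high STRA8 than without STRA8. Slc25a31, the ADP/ATP carrier of germ cells, stood at 259, 237 and 230.3 TPM in the Stra8-deficient libraries, 453 and 343 in the low-STRA8 libraries and 553 and 572 in the high-STRA8 libraries, rising at each step (0.91, SE 0.11, adjusted p = 0.00211, then 0.38, SE 0.12, adjusted p = 0.0386). Slc25a3, the phosphate carrier, went with the subunits, with 524, 487 and 527 TPM in the Stra8-deficient libraries, 540.4 and 533 in the low-STRA8 libraries and 391 and 384 in the high-STRA8 libraries (log2 fold change -0.63, SE 0.10, adjusted p = 0.00297). Vdac3, a pore of the outer membrane, rose from Stra8-deficient to low-STRA8 cells (0.56, SE 0.10, adjusted p = 0.00615) and gave 0.07 (SE 0.11, adjusted p = 0.65) from low to high STRA8.

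Of 19 tested genes that transcribe or control respiratory genes and mitochondrial DNA, 2 rose and 3 fell from low to high STRA8, 2 were higher and 3 lower in low-STRA8 than in Stra8-deficient cells, and 3 were higher and 2 lower with high STRA8 than without STRA8. Gabpb2, a subunit of the GABP factor, was low in low-STRA8 cells, with 29.6, 26.02 and 20.3 TPM in the Stra8-deficient libraries, 14.3 and 15.2 in the low-STRA8 libraries and 39.6 and 41.8 in the high-STRA8 libraries (log2 fold change 1.35, SE 0.16, adjusted p = 0.000901). Tfb1m, a methyltransferase of mitochondrial ribosomal RNA, was higher with high STRA8 than without STRA8 (0.66, SE 0.11, adjusted p = 0.00196), and Slirp, which binds mitochondrial RNA, fell from low to high STRA8 (-1.07, SE 0.18, adjusted p = 0.00322). Of 11 genes of coenzyme Q synthesis, 3 were lower with high STRA8 than without STRA8, among them Coq7 (-0.56, SE 0.16, adjusted p = 0.0267) and Coq8a (-0.76, SE 0.15, adjusted p = 0.00492). In the other comparisons of this list, 1 (Coq7) was lower in high-STRA8 than in low-STRA8 cells and 1 (Pdss2) higher in low-STRA8 than in Stra8-deficient cells. The 13 subunits encoded in mitochondrial DNA were not analysed here.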

How the data were processed

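RNA-seq libraries (stranded, poly-A selected, single-end reads of 40 bases, made and pooled together) were quantified by the authors with kallisto 0.43.0, and the deposited files hold estimated counts per transcript and TPM per gene. ChIP reads were aligned with Bowtie 1.2.0 to mm10, and the deposited summits carry the -log10 p-value that the authors obtained with MACS2 2.1.1.20160309. The authors' DESeq-normalized counts and the input chromatin libraries were not used.

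Transcripts were joined to genes through GENCODE M21 (75554 of 75737 matched), and estimated counts were summed per gene and rounded. All 83 members were among the 12508 genes tested, which exceeded 1 TPM in at least 1 library and could be joined (37 could not). Tests used edgeR 4.0.16 (quasi-likelihood, TMM) on all 7 libraries in 1 fit with a shared spread (4 residual degrees of freedom), adjusted by Benjamini-Hochberg over all genes and tested on simulated data first. The labels do not tie each RNA library to an animal, so the p-values measure the spread between libraries. Genes with close copies share reads, and their split by kallisto is uncertain. Whether the replicate numbers pair the libraries could not be decided. Deviations of same-numbered libraries from their group means correlated at -0.17 to -0.03, but in a group of 2 libraries the deviations mirror each other. Replicate libraries differed by more than sampling noise (chi-square per degree of freedom of 9.07 or more).

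Members and gene lists were chosen with earlier results of these data known. The genes named were, per comparison and complex, up to 3 called members with the smallest adjusted p and the largest change, members called against the majority, those with a mean under 5 TPM, the most abundant, those with summits in all 3 libraries, and paralog groups. Core complex I genes, Atp5f1, Ndufa3, Ndufc1 and the members named for binding or promoter content were added after their values were seen. Alternatives were DESeq2 1.42.0, limma 3.58.1 on log2(TPM + 1) and log2(TPM + 0.1), other size factors, no filter, length offsets, a replicate block and leaving out each library. The result of 1 member is not reported here.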

Additional observations from a re-analysis of the deposited data

How the results depend on the processing

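The medians of the subunit genes kept their sign in all alternatives of the 3 comparisons. The share of lower members in high-STRA8 against Stra8-deficient cells, below that of all genes with edgeR (14.5% against 18.3%), was above it with DESeq2 (21.7% against 19.2%), with limma on log2(TPM + 1) (27.7% against 24.04%) and without the filter on TPM (13.3% against 11.5%). The count of members lower in high-STRA8 than in low-STRA8 cells (59) was 33 with the length offset and ranged from 12 to 62 when 1 library was left out, with 12 without high-STRA8 2, 37 without low-STRA8 2 and 39 without high-STRA8 1. The count of higher members there (0) was 1 with limma at either pseudocount. The count of members higher in low-STRA8 than in Stra8-deficient cells (40) was 16 with limma at either pseudocount, 13 with the length offset and 7 to 62 when 1 library was left out, and each of the 7 libraries moved it by over 1.5 times. In high-STRA8 against Stra8-deficient cells, the lower count (12) was 23 with limma at either pseudocount and 1 to 14 when 1 library was left out, with 4 without Stra8-deficient 3, 6 without high-STRA8 1 and 1 without high-STRA8 2, and the higher count (4) was 1 to 5 when 1 library was left out, with 2 without Stra8-deficient 1 or 2 and 1 without high-STRA8 1 or 2. The causes were not tested. With the replicate number as a block, the lower count in high-STRA8 against Stra8-deficient cells was 3 (3.61%, against 12.4% of all genes). The block gave 57 higher members in low-STRA8 against Stra8-deficient cells (68.7%, against 8.34%) and 59 lower in high-STRA8 against low-STRA8 cells (71.1%, against 15.8%). The numbers were also crossed between the low-STRA8 and high-STRA8 libraries, a pairing chosen after the data were seen. This block gave 63 higher members in low-STRA8 against Stra8-deficient cells (75.9%, against 11.2% of all genes). It gave 63 lower in high-STRA8 against low-STRA8 cells (75.9%, against 18.4%) and 8 lower in high-STRA8 against Stra8-deficient cells (9.64%, against 15.1%). On the log2 TPM scale of limma the median of all genes moved to 0.11 in high-STRA8 against low-STRA8 cells and to -0.15 in low-STRA8 against Stra8-deficient cells. Relative to it, the members' medians were -0.51 and 0.42, against -0.64 and 0.47 with edgeR. The count of bound members (12) was 32 with a summit in at least 1 library, 7 in all 3, and 7 to 11 when 1 FLAG/FLAG library was left out, with 7 without the first. Depth limited mainly Cox8c, at 2 to 23 counts a library.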
